A study of Homo sapiens with 18 samples.

Results

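Prostaglandins are short-lived lipid signals made from arachidonic acid, and 8 genes of their synthesis, breakdown and reception were followed here through every library of the series. The rule lists them by symbol and uses no measured value, but the genes were chosen with earlier results of these data known. The counts and medians below are therefore not independent of that choice. The genes are PTGS1 and PTGS2 (the cyclooxygenases), PTGES and PTGIS (terminal synthases), HPGD (breakdown), and PTGER2, PTGER4 and PTGFR (receptors). All 8 had a row among the 38716 gene symbols of the deposited tables.

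Ribosome profiling (Ribo-seq, sequencing of mRNA fragments protected by ribosomes) and mRNA-seq were available for IMR90, a line of primary human fetal lung fibroblasts. The 18 libraries form 6 groups of 3 replicates. Young cells were proliferating at low passage and old cells had reached replicative senescence at high passage, with no treatment named for either, and ICM cells were low-passage cells given inflachromene (ICM), a compound whose direct targets are HMGB1 and HMGB2, architectural proteins of chromatin. The labels name no altered allele in any group, and the dose and duration of ICM are not in the labels. The study describes the ICM cells of its Ribo-seq as treated for 6 days. Each lysate supplied both a Ribo-seq and an mRNA-seq library, so a condition and its replicate number name one lysate. All groups come from a single cell line, and the 3 replicates of a condition were independent cultures of it.

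Cyclooxygenases turn arachidonic acid into PGH2, an unstable intermediate that terminal synthases then convert into PGE2, prostacyclin or another prostanoid. The products leave the cell, act on G protein-coupled receptors of the same cell or its neighbours, and are inactivated after uptake by the dehydrogenase HPGD. In lung fibroblasts, PGE2 acting through the Gs-coupled receptors EP2 and EP4 is known to restrain proliferation and matrix production, and senescent fibroblasts are known to secrete prostaglandins.

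The Ribo-seq libraries held 46239 to 1718521 reads in coding sequence (CDS), and the mRNA-seq libraries 7902427 to 14144455 reads in coding genes. In young replicate 1 and old replicate 2 only 34.4% and 15.0% of Ribo-seq reads lay in the CDS, the lowest shares of the 9 Ribo-seq libraries, and results that rest on these lysates are also given without them. All 12 fibroblast markers exceeded 1 CPM (counts per 1000000 reads, with TMM-scaled library sizes) in the mean of every condition, but their summed level was 13000 to 13590 CPM in ICM libraries against 31550 to 35820 in young and 29000 to 32760 in old libraries. None of 9 epithelial and none of 9 leukocyte markers reached a mean of 1 CPM in any condition, and of 7 endothelial markers 1 did in young, none in old and 1 in ICM. All 7 smooth muscle markers did in every condition, with sums of 1798 to 2006 CPM in young, 2593 to 2722 in old and 268 to 282 in ICM libraries. Whether these shifts bear on the genes below was not tested. In bulk samples fewer cells with a transcript and less of it per cell cannot be told apart.

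Promoter sequences are shown first, because several of the genes moved together or in opposite directions and PTGS2 is the textbook case of an inducible promoter with a TATA box. The RefSeq promoter table (GRCh38.p14) held 7 of the 8 genes with 9 annotated starts; PTGIS was not among them. Each sequence below is the 250 bases before an annotated start, written 5′ to 3′ on the gene's own strand, and capitals mark a match to a searched motif on either strand.
PTGS1, chr9:122375052-122375301, plus strand: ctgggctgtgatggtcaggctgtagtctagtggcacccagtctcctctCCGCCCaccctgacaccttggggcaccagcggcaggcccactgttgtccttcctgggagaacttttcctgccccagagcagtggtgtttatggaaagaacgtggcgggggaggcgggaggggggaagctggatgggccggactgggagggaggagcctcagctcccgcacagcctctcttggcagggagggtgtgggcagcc
PTGS2, chr1:186680424-186680673, minus strand: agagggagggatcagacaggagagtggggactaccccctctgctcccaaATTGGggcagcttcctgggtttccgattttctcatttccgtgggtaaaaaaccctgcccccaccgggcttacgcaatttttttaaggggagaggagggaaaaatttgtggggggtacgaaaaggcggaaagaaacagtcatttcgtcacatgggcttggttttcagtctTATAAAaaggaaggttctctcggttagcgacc
PTGES, chr9:129753043-129753292, minus strand: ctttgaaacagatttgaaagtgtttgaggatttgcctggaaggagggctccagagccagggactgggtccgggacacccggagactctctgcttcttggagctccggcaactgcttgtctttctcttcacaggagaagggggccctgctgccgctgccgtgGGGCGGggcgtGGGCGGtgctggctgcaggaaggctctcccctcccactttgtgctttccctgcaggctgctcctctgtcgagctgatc
PTGER2, chr14:52314062-52314311, plus strand: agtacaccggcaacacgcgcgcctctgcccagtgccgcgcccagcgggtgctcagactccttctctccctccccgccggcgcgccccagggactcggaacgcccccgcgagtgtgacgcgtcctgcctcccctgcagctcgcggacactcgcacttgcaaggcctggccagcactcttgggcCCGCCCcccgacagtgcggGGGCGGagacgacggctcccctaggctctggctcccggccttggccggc
PTGER4, chr5:40679665-40679914, plus strand: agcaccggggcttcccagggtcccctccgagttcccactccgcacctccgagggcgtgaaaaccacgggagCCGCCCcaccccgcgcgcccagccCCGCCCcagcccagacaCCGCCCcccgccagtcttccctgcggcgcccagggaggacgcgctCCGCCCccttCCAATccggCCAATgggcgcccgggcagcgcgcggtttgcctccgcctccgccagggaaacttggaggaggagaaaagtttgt

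In the PTGS2 sequence the TATA box (TATAAA) begins 32 bases before the start. That motif was found in 10.7% of the 35116 promoters of the table, and among these genes in PTGS2 and in a further annotated start of PTGS1 that is not shown, 208 bases before it. The GC box (GGGCGG), present in 42.6% of promoters, was found in every gene of the table's 7 except PTGS2, with 4 matches in PTGER4 and 2 each in PTGES and PTGER2. The CCAAT box (CCAAT, 32.0% of promoters) matched PTGS2, PTGER4 and HPGD. The antioxidant response element core (TGACNNNGC, 10.9%) matched only the start of PTGS1 that is not shown. No exact match to the cAMP response element core (TGACGT, 7.10%), the AP-1 site (TGANTCA, 6.57%) or the E-box (CACGTG, 6.34%) was found in these windows. Only exact letters were searched, so variant sites were not counted and working elements of these kinds may still be present. PTGER2 and PTGER4 had GC contents of 74.0% and 72.8% over the 250 bases, and PTGS2 had 50.4%.

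In mRNA-seq, 7 of the 8 genes passed the filter on low counts, and HPGD did not. With ICM, 5 of the 7 rose against young cells (PTGS1, PTGS2, PTGES, PTGER4 and PTGFR) and 2 fell (PTGIS and PTGER2). In old cells 4 rose (PTGS1, PTGS2, PTGER4 and PTGFR), the same 2 fell, and PTGES did not pass the test. Against old cells, ICM cells had more PTGS1, PTGS2, PTGES, PTGER2 and PTGER4 mRNA, while PTGIS and PTGFR did not pass the test. A change was called at an edgeR adjusted p under 0.05, with adjustment over all 13177 genes tested.

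A large share of all genes was called in these comparisons. In mRNA-seq, 34.9% of tested genes rose and 36.1% fell in ICM vs young, 32.4% rose and 33.7% fell in old vs young, and 30.8% rose and 32.5% fell in ICM vs old. The replicates of the compared groups did not overlap for 7, 6 and 7 of the 7 genes in these comparisons, against 74.5%, 67.1% and 66.3% of all tested genes. The median log2 change over the 7 genes was 1.53 between ICM and young cells, 0.88 between old and young cells and 0.83 between ICM and old cells, beside medians of -0.01, -0.02 and -0.01 over all genes tested. ICM vs young and old vs young share the same young libraries, so their values are set side by side and not correlated.

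**Figure D1:**
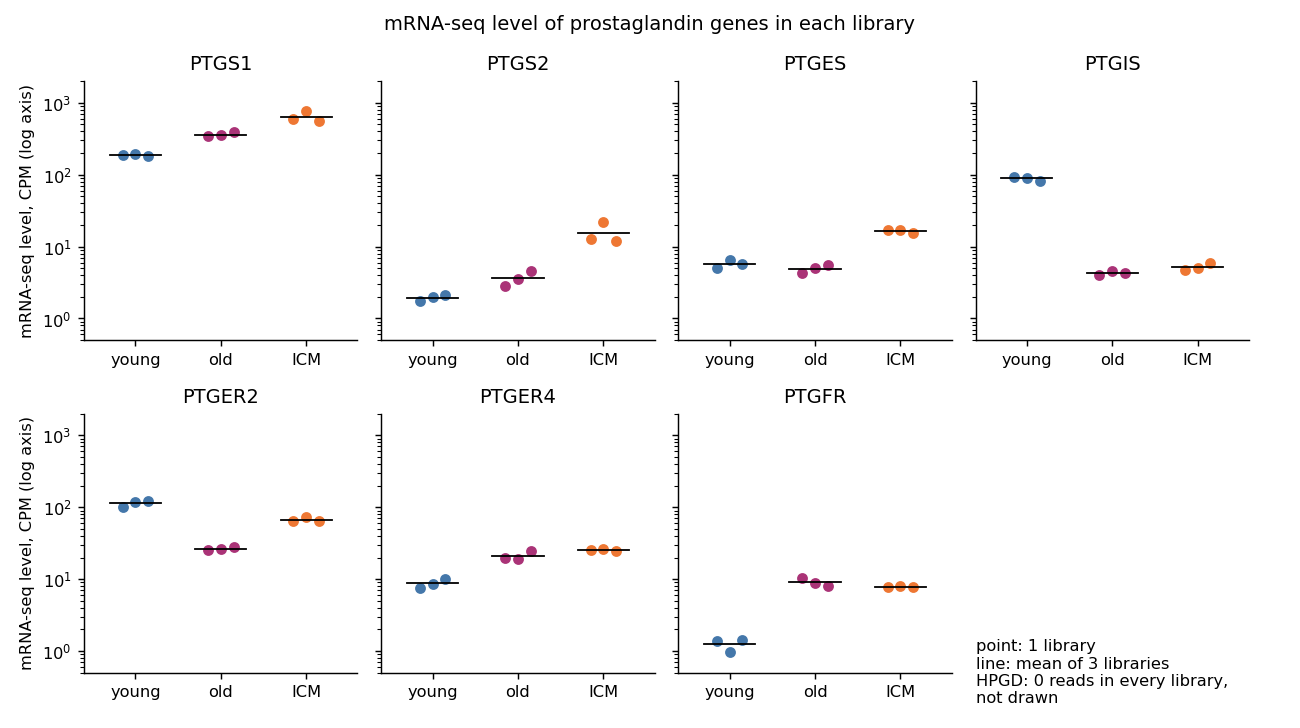
mRNA-seq level of the 7 detected genes in CPM on a log axis, with 1 point per library, 3 libraries per condition and a line at their mean. PTGIS stands at 81.9 to 92.9 CPM in young libraries and at 3.98 to 5.85 CPM in the others, while PTGS1 and PTGS2 are lowest in young and highest in ICM libraries.

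PTGS1, which encodes the constitutive cyclooxygenase COX1, lies at chr9:125132809-125157982 on the plus strand (GRCh37, GENCODE) and has a lncRNA gene overlapping it on the same strand. Its mRNA-seq level was 186.5, 195.9 and 180.3 CPM in young replicates 1 to 3, 341, 350 and 386 CPM in old, and 602, 761 and 558 CPM in ICM libraries. The 3 conditions did not overlap, with young lowest and ICM highest. The log2 change was 1.77 ± 0.09 (SE, n = 3 per group) in ICM vs young (edgeR adjusted p = 5.20e-14), 0.94 ± 0.09 in old vs young (edgeR adjusted p = 4.22e-09) and 0.83 ± 0.09 against old cells with ICM (edgeR adjusted p = 1.77e-08).

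PTGS2 encodes COX2, the cyclooxygenase that cytokines and mitogens induce within hours, and lies at chr1:186640923-186650054 on the minus strand. The lncRNA gene PACERR overlaps it on the opposite strand, and how strand was handled in the counts is not given in the sources used here. PTGS2 was scarce in young cells, at 1.74, 2.00 and 2.10 CPM (14, 23 and 22 reads), and stood at 2.79, 3.48 and 4.54 CPM in old and 12.7, 21.7 and 12.04 CPM in ICM libraries. The lowest ICM library held more than the highest old library, which in turn held more than any young library. The log2 change was 2.95 ± 0.25 in ICM vs young (edgeR adjusted p = 3.56e-10), the largest rise among the 7 genes in that comparison, and 2.07 ± 0.21 in ICM vs old (edgeR adjusted p = 1.30e-08). The rise in old cells, 0.88 ± 0.33 (edgeR adjusted p = 0.0221), rested on 59 young and 122 old reads. It missed the threshold without young replicate 1 (adjusted p = 0.0537), young replicate 2 (0.0501) or old replicate 3 (0.0882), without young replicate 1 and old replicate 2 together (0.0757), and when only CDS reads were counted (0.218).

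The balance of the cyclooxygenases within a library was taken from CDS reads per kb of coding length, so that the genes can be compared. Per kb, PTGS1 exceeded PTGS2 by 109, 79.4 and 54.4 times in young, 121, 86.8 and 69.1 times in old, and 37.9, 25.7 and 37.5 times in ICM libraries. The mean ratios were 81.0 ± 27.4, 92.5 ± 26.6 and 33.7 ± 6.94 (SD, n = 3). The young and old ranges overlapped, and the ICM libraries lay below both without overlap. PTGS1 thus remained the more abundant cyclooxygenase transcript in each of the 9 libraries. The young ratios rest on 7, 15 and 18 PTGS2 reads in the CDS.

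PTGES, at chr9:132500610-132515321 on the minus strand, encodes the microsomal synthase that turns PGH2 into PGE2. It was at 4.96, 6.45 and 5.72 CPM in young, 4.30, 5.04 and 5.47 CPM in old and 17.0, 17.1 and 15.5 CPM in ICM libraries. Young and old libraries overlapped, and every ICM library was higher than all 6 of them. The log2 change was 1.52 ± 0.12 in ICM vs young (edgeR adjusted p = 2.75e-10) and 1.74 ± 0.12 in ICM vs old (edgeR adjusted p = 4.07e-11). In old vs young it was -0.22 ± 0.16 (edgeR adjusted p = 0.223).

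PTGIS, at chr20:48120411-48184674 on the minus strand, encodes prostacyclin synthase, which makes the vasodilator prostacyclin from PGH2. It was at 92.9, 90.8 and 81.9 CPM in young, 3.98, 4.52 and 4.26 CPM in old and 4.73, 5.09 and 5.85 CPM in ICM libraries. It fell 16.9-fold in ICM cells (log2 change -4.08 ± 0.10, edgeR adjusted p = 1.16e-19) and 20.6-fold in old cells (-4.36 ± 0.10, edgeR adjusted p = 3.35e-19). These were the largest changes of the 7 genes. ICM and old cells differed by 0.28 ± 0.15 (edgeR adjusted p = 0.117), although the lowest ICM library stood above the highest old library.

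Within a library, PTGIS exceeded PTGES per kb of coding length in young cells and was below it in all others. The ratio of PTGIS to PTGES was 6.81, 4.29 and 3.87 in young, 0.182, 0.405 and 0.198 in old, and 0.0465, 0.0591 and 0.105 in ICM libraries. Put the other way, PTGES transcripts exceeded PTGIS transcripts 4.34 ± 1.63 times in old and 16.0 ± 6.06 times in ICM cells (mean ± SD, n = 3). The 3 conditions did not overlap. The old and ICM ratios rest on 9 to 27 PTGIS reads in the CDS per library.

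**Figure D2:**
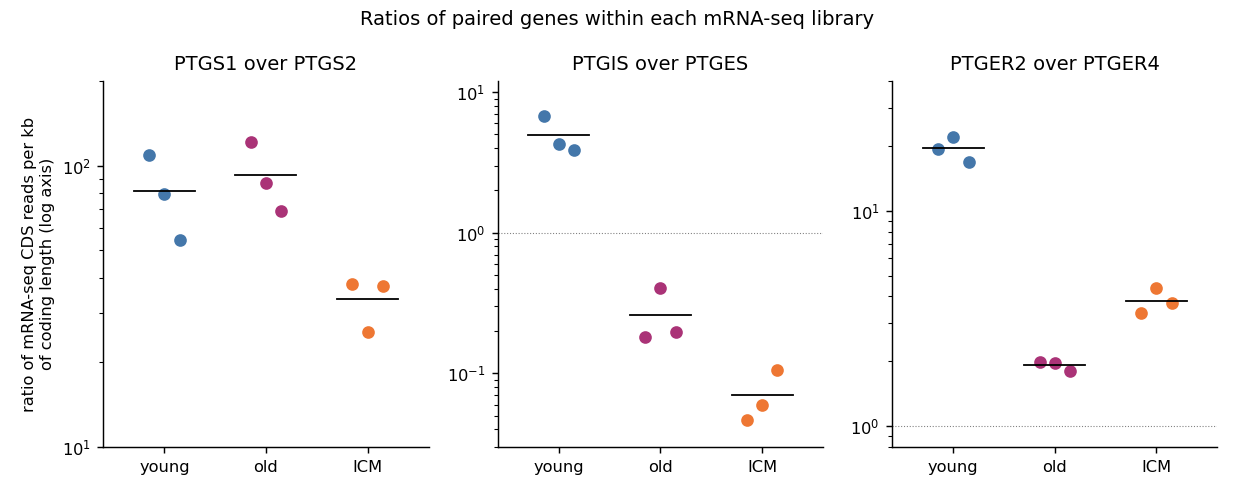
Ratios of CDS reads per kb of coding length between paired genes within each mRNA-seq library, on log axes, with 1 point per library, a line at the mean of 3 libraries and a dotted line at equality where in range. PTGIS over PTGES passes from above 1 in young to below 1 in old and ICM libraries, and PTGER2 over PTGER4 is lowest in old libraries at 1.80 to 1.99.

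HPGD, at chr4:175411326-175444305 on the minus strand, encodes the dehydrogenase that starts the breakdown of PGE2 and related prostaglandins. No read was assigned to it in any column of any of the 18 libraries. In the parts counted here, CDS for Ribo-seq and UTRs with CDS for mRNA-seq, 21170 of the 38716 listed symbols had no read, HPGD included. Reads in the other classes were left out of that number. The counts do not show whether the HPGD transcript was scarce or its reads were assigned elsewhere in the counting. A count of 0 allows up to 3 assigned reads, which is 0.212 to 0.380 reads per 1000000 in single mRNA-seq libraries and 0.0301 per 1000000 over the 99615539 mRNA-seq reads of all 9. This limit covers counting error only and is a limit on the level only if the counting could assign reads to HPGD. A lncRNA gene overlaps HPGD on the opposite strand.

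PTGER2, at chr14:52781023-52795316 on the plus strand, encodes the PGE2 receptor EP2, which raises cAMP through Gs. It was at 101, 118 and 122 CPM in young, 25.5, 26.1 and 28.4 CPM in old and 64.2, 73.2 and 63.7 CPM in ICM libraries. The conditions did not overlap, and ICM cells lay between old and young. PTGER2 fell 1.71-fold in ICM cells (log2 change -0.77 ± 0.08, edgeR adjusted p = 6.15e-09) and 4.28-fold in old cells (-2.10 ± 0.08, edgeR adjusted p = 2.73e-15), and ICM cells exceeded old cells by 1.33 ± 0.09 (edgeR adjusted p = 6.70e-12).

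PTGER4, at chr5:40680017-40693837 on the plus strand, encodes EP4, the other Gs-coupled PGE2 receptor, and TTC33 overlaps it on the opposite strand. It was at 7.57, 8.63 and 10.01 CPM in young, 19.5, 18.8 and 24.3 CPM in old and 25.4, 26.2 and 24.6 CPM in ICM libraries. All old and ICM libraries exceeded all young libraries. It rose by 1.53 ± 0.12 on the log2 scale in ICM vs young (edgeR adjusted p = 1.00e-10) and 1.24 ± 0.12 in old vs young (edgeR adjusted p = 8.57e-09). The difference of ICM from old cells was 0.29 ± 0.10 (edgeR adjusted p = 0.0160), and it missed the threshold without old replicate 1 (0.0695), old replicate 2 (0.0991) or ICM replicate 2 (0.0504), without young replicate 1 and old replicate 2 together (0.0880), and with CDS reads only (0.0679).

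The EP2 and EP4 transcripts therefore moved in opposite directions against young cells. Per kb of coding length, PTGER2 exceeded PTGER4 by 19.4, 22.1 and 16.9 times in young, 1.99, 1.96 and 1.80 times in old, and 3.35, 4.36 and 3.74 times in ICM libraries. The means were 19.5 ± 2.57, 1.92 ± 0.0999 and 3.82 ± 0.511 (SD, n = 3), and the conditions did not overlap.

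PTGFR, at chr1:78769568-79006386 on the plus strand, encodes FP, the Gq-coupled receptor for PGF2alpha. A lncRNA gene, MGC27382, overlaps it on the same strand and 2 pseudogenes on the opposite strand. It was scarce in young cells, at 1.36, 0.959 and 1.43 CPM (11, 11 and 15 reads). It stood at 10.4, 8.74 and 8.15 CPM in old and 7.74, 7.96 and 7.80 CPM in ICM libraries. Its log2 change came to 2.65 ± 0.20 in ICM vs young (edgeR adjusted p = 6.34e-11) and 2.86 ± 0.20 in old vs young (edgeR adjusted p = 2.03e-11). ICM and old cells differed by -0.21 ± 0.13 (edgeR adjusted p = 0.158), although each ICM library was below each old library.

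As CDS reads per kb of coding length and per 1000000 library reads, the order of the CDS levels changed with the condition. In young cells PTGER2 (54.7 ± 2.44, SD, n = 3) and PTGS1 (54.5 ± 2.99) led and did not differ beyond their spread, followed by PTGIS (22.8 ± 2.06), PTGES (4.77 ± 1.01), PTGER4 (2.85 ± 0.430), PTGS2 (0.727 ± 0.236) and PTGFR (0.374 ± 0.0309). The ranges of neighbouring genes from PTGIS downward did not overlap in young cells. In old cells PTGS1 (92.6 ± 7.57) was followed by PTGER2 (13.2 ± 1.75), PTGER4 (6.95 ± 1.31), PTGES (3.34 ± 0.547), PTGFR (2.72 ± 0.418), PTGS2 (1.07 ± 0.372) and PTGIS (0.836 ± 0.268). The ranges of PTGES and PTGFR overlapped there, as did those of PTGS2 and PTGIS. In ICM cells PTGS1 (196 ± 30.1) and PTGER2 (35.0 ± 5.81) again came first, then PTGES (14.8 ± 0.331), PTGER4 (9.16 ± 0.617), PTGS2 (6.17 ± 2.45), PTGFR (2.58 ± 0.196) and PTGIS (1.05 ± 0.484). Only PTGER4 and PTGS2 overlapped among neighbours in ICM cells.

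**Figure D3:**
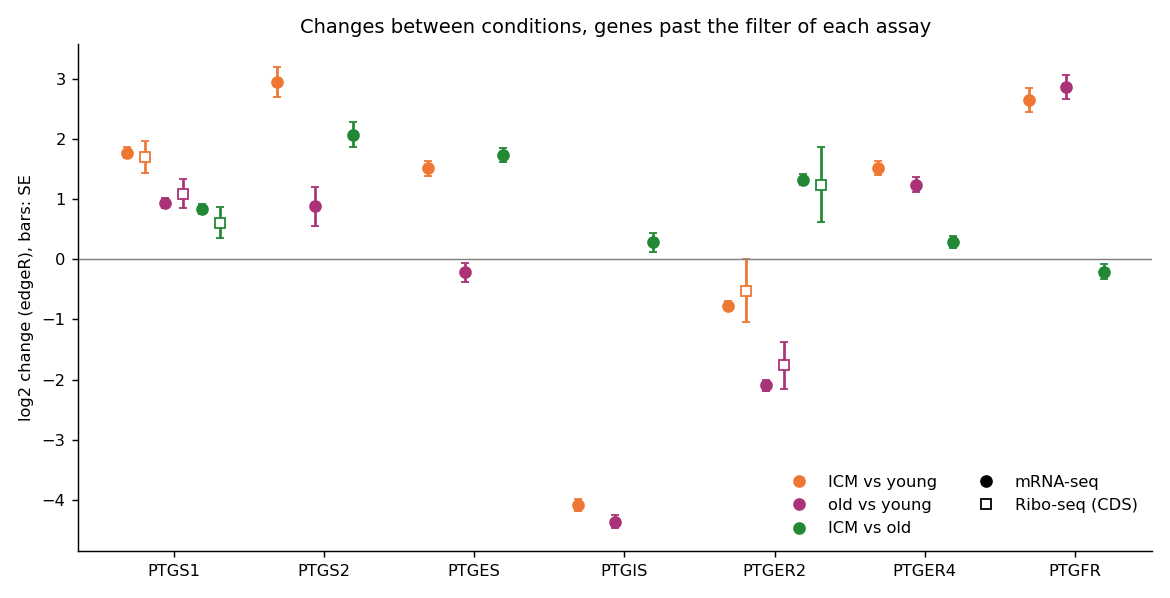
log2 change of each gene in the 3 comparisons between conditions, with bars of 1 SE, from mRNA-seq (filled circles) and, for the genes past its filter, Ribo-seq CDS reads (open squares). PTGIS lies lowest, at -4.08 and -4.36, and PTGER2 and PTGER4 lie on opposite sides of 0 against young cells.

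Footprints were far fewer than mRNA-seq reads, and 2 of the 8 genes, PTGS1 and PTGER2, passed the Ribo-seq filter. In Ribo-seq, 13.1% of 4609 tested genes rose and 13.9% fell in ICM vs young, 19.0% rose and 17.8% fell in old vs young, and 5.62% rose and 7.98% fell in ICM vs old. PTGS1 footprints rose in ICM and in old cells, and PTGER2 footprints fell in old cells. In ICM vs old neither gene was called, and 1 of them, PTGS1, had an unadjusted p under 0.05 with edgeR and none with DESeq2.

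PTGS1 had 12, 113 and 217 footprint reads in young, 459, 23 and 168 in old and 104, 59 and 9 in ICM libraries. Scaled to depth these were 238, 182 and 139 CPM in young, 326, 462 and 345 CPM in old and 503, 807 and 206 CPM in ICM libraries. Every old library exceeded every young library, and ICM replicate 3, with 9 reads, fell inside the young range. The log2 change was 1.70 ± 0.27 in ICM vs young (edgeR adjusted p = 1.09e-05), 1.09 ± 0.24 for old against young cells (edgeR adjusted p = 0.000659) and 0.61 ± 0.26 for ICM against old cells (edgeR adjusted p = 0.117). Without ICM replicate 3 the last comparison passed the threshold (adjusted p = 0.0208), and without young replicate 3 the rise in old cells did not (0.0958).

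PTGER2 had 2, 38.5 and 99 footprint reads in young, 25, 2 and 8 in old and 9, 5 and 0 in ICM libraries; estimated counts need not be whole. In CPM these were 39.7, 62.7 and 63.6 in young, 17.7, 40.1 and 16.4 in old and 43.5, 68.4 and 0 in ICM libraries. Old replicate 2, with 2 reads, overlapped the young range and the other old libraries lay below it. Its footprints changed on the log2 scale by -1.76 ± 0.39 in old vs young (edgeR adjusted p = 0.000680), and that call was lost with DESeq2 (adjusted p = 0.117) and with the replicate number as a block (0.107). It was -0.52 ± 0.52 in ICM vs young (edgeR adjusted p = 0.488) and 1.24 ± 0.62 in ICM vs old (edgeR adjusted p = 0.207).

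The other 5 genes with footprints stayed below the filter. PTGIS had 0, 33 and 102 CDS reads in young libraries, 8, 0 and 5 in old and 3, 0 and 1 in ICM libraries. Fitted without a filter, its log2 change was -3.06 ± 0.48 in old vs young (edgeR adjusted p = 2.31e-08) and -2.37 ± 0.73 in ICM vs young (0.0171). PTGER4 had 0, 4.5 and 11 reads in young, 22.5, 0 and 7 in old and 10, 5 and 3 in ICM libraries, and its change in ICM vs young without a filter was 2.75 ± 0.66 (edgeR adjusted p = 0.00102).

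PTGS2 had 1, 7 and 4 footprint reads in young, 12, 1 and 5 in old and 7, 3 and 2 in ICM libraries. Its levels of 33.9, 41.0 and 45.7 CPM in ICM libraries stood above the young and old libraries, of which the highest held 20.1 CPM, and the unfiltered change in ICM vs young was 2.47 ± 0.76 (edgeR adjusted p = 0.0171). At the depth of ICM replicate 3, however, 1 read alone stands for 22.9 CPM. Among genes past the Ribo-seq filter, ICM replicates did not overlap young ones for 30.4% and old ones for 23.1%. PTGES had 2, 2 and 3 reads in young, 3, 0 and 2 in old and 8, 2 and 0 in ICM libraries. PTGFR had 0 in each young library, 10, 0 and 1 in old and 3, 0 and 0 in ICM libraries.

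Leaving out young replicate 1 and old replicate 2, the lysates with the lowest CDS share, let 6 of the 8 genes pass the Ribo-seq filter. With ICM 4 then rose against young cells (PTGS1, PTGS2, PTGES and PTGER4) and 1 fell (PTGIS). In old cells 1 rose (PTGS1) and 2 fell (PTGER2 and PTGIS), and against old cells 1 rose with ICM (PTGES). Over all 8105 genes tested in that fit, 7.61% rose and 11.3% fell with ICM against young cells, 14.2% rose and 12.4% fell in old cells, and 3.26% rose and 7.17% fell with ICM against old cells. The mRNA-seq counts without both lysates were 5 up and 2 down in ICM vs young, 3 up and 2 down in old vs young, where PTGS2 was lost, and 4 up and 0 down in ICM vs old, where PTGER4 was lost. The shares of all 13303 genes tested there were 34.7% up and 35.8% down, 31.4% up and 31.1% down, and 30.0% up and 32.3% down.

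**Figure D4:**
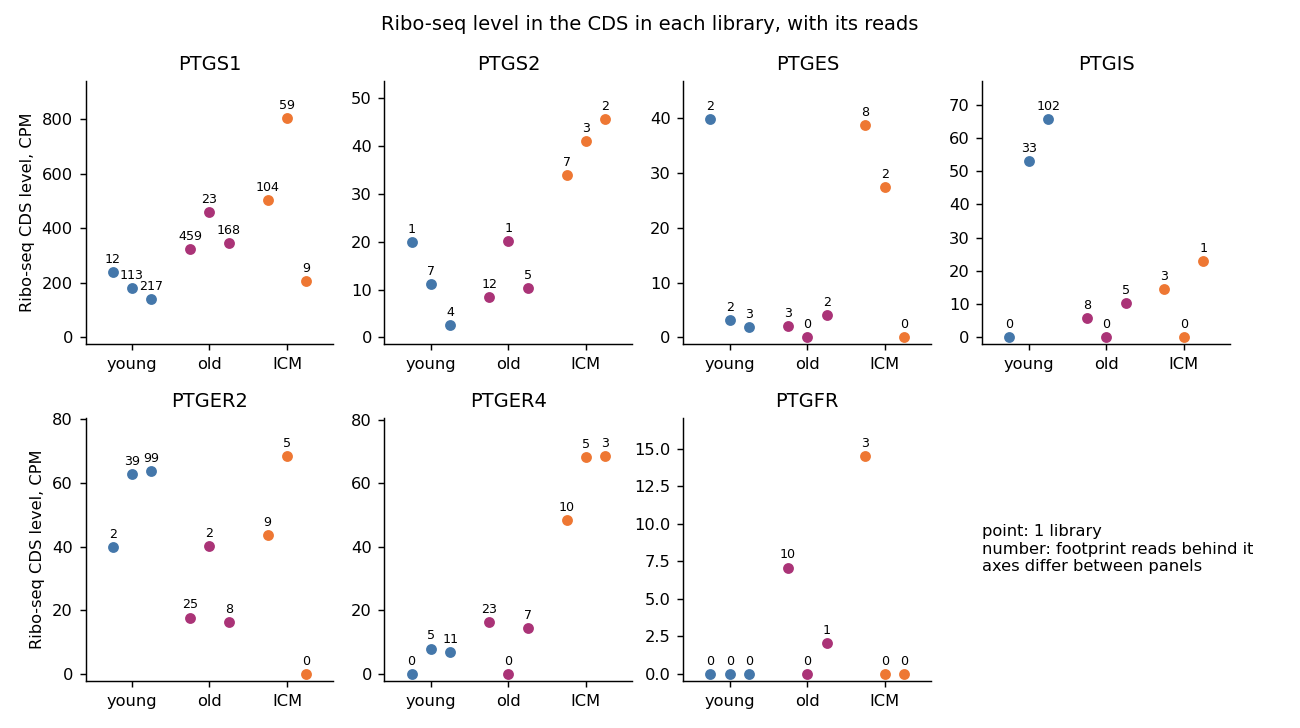
Ribo-seq level in the CDS in CPM, with 1 point per library, 3 libraries per condition and the footprint reads, rounded to whole numbers, written above each point; the axes differ between panels. PTGS1 rests on up to 459 reads, while most points of PTGS2, PTGES and PTGFR rest on 10 reads or fewer.

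Translational efficiency, footprints per unit of mRNA, could be tested for PTGS1 and PTGER2. Among 4584 genes tested, 2.03% were called between ICM and young cells, 1.51% between old and young cells and 0.262% between ICM and old cells, and neither gene was among them. Neither had an unadjusted p under 0.05, with edgeR or with DESeq2. For PTGS1 the log2 difference in efficiency was -0.13 ± 0.25 for ICM against young, 0.18 ± 0.23 for old against young and -0.30 ± 0.24 for ICM against old cells, with edgeR adjusted p of 0.862, 0.782 and 0.712. For PTGER2 it was 0.29 ± 0.52, 0.43 ± 0.39 and -0.14 ± 0.57, with edgeR adjusted p of 0.846, 0.683 and 0.959. The SEs were 0.23 to 0.57. On simulated counts, 82 of 192 genes with a 2-fold change in efficiency in ICM vs young were recovered. Differences of that size can thus be missed at this depth.

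Within single lysates the ratio of PTGS1 Ribo-seq CPM to mRNA-seq CPM was 1.28, 0.927 and 0.773 in young, 0.954, 1.32 and 0.894 in old, and 0.835, 1.06 and 0.369 in ICM lysates. The ICM lysate at 0.369 is replicate 3 with its 9 reads, and the highest values in young and old belong to the lysates with the lowest CDS share. For PTGER2 the ratio was 0.392, 0.531 and 0.519 in young and 0.696, 1.54 and 0.577 in old lysates, where 1.54 rests on 2 reads. In ICM lysates it was 0.678 and 0.934, from 9 and 5 reads, and replicate 3 had no PTGER2 footprint.

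Most footprints of these genes lay in the CDS. For PTGS1 the CDS held 342 of 347 footprint reads in coding transcripts in young, 650 of 675 in old and 172 of 173 in ICM cells, summed over 3 libraries. For PTGER2, 24 of 163.5 reads (14.7%, exact binomial 95% interval 9.61% to 21.0%, counting error only) lay in the 5′ UTR in young cells. Of these 24, 21 came from young replicate 3, and without that library the share was 6.90% (3 of 43.5 reads), a comparison added after the data were seen. It had 2 of 39 there in old cells and 0 of 14 in ICM cells, and the intervals of 0.627% to 17.3% and 0% to 23.2% overlap that of young cells. Over all genes the 5′ UTR share was 2.78% and 3.70% in the deeper young libraries 3 and 2, and 10.2% in young replicate 1. In mRNA-seq 11.5%, 11.8% and 12.8% of PTGER2 reads lay in the 5′ UTR in young, old and ICM cells.

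Nearness of pattern was measured over the 9 mRNA-seq libraries as the root mean square difference of centred log2(CPM + 0.5) levels. The genes compared were the 10811 that reached 5 CPM on average. The added 0.5 CPM lessens the changes of scarce genes such as PTGS2 and PTGFR more than those of abundant genes. The gene nearest to PTGS2 was TBXAS1, which encodes thromboxane synthase, another enzyme that uses PGH2, at a difference of 0.209, followed by LAMA3 (0.255) and PRNP (0.268). TBXAS1 stood at means of 11.3, 17.4 and 76.3 CPM in young, old and ICM cells. Nearest to PTGES was AHR (0.0806), the aryl hydrocarbon receptor, followed by GLIS3 (0.106) and ALAS1 (0.129). AHR stood at 29.1, 26.7 and 82.6 CPM.

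PTGS1 was nearest to GDF15 (0.0835), a secreted stress-induced member of the TGF-beta family, then to TMEM45A (0.120) and BSCL2 (0.123). PTGER2 was nearest to ROR2 (0.109), PKDCC (0.143) and SHISA3 (0.157), and PTGER4 to WFS1 (0.102), INKA2 (0.108) and ATP6V0A1 (0.114). PTGFR was nearest to TNFRSF10D (0.161), STC1 (0.179) and HIST2H2BE (0.211). For PTGIS the 3 nearest genes were further off, SLC7A14 at 0.178, CEMIP at 0.278 and KRT19 at 0.487, and all 3 had their highest mean in young cells.

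Another 104 genes upstream, downstream and alongside were grouped in 8 lists, and 83 of them passed the mRNA-seq filter. In ICM vs young 35 rose, 28 fell and 20 were not called, and in old vs young 30 rose, 35 fell and 18 were not called. The background shares given above, 34.9% and 36.1%, and 32.4% and 33.7%, apply here too.

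Of 12 tested genes of arachidonate release and re-esterification, 9 rose, 1 fell and 2 were not called in ICM vs young (median log2 change 0.59), and 8 rose, 1 fell and 3 were not called in old vs young (0.59). PLA2G4A, the cytosolic phospholipase A2 that supplies the cyclooxygenases, rose in ICM cells (log2 change 1.61 ± 0.16) and fell in old cells (-1.52 ± 0.25). PLA2G12A rose in both (1.74 ± 0.07 and 0.84 ± 0.08). PNPLA2, the adipose triglyceride lipase, rose by 1.56 ± 0.08 with ICM. MGLL, the monoacylglycerol lipase, fell slightly with ICM (-0.19 ± 0.07) and rose in old cells (1.18 ± 0.07).

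Of 9 tested other terminal synthases and reductases, 5 rose and 2 fell in ICM vs young (median 0.93), and 3 rose and 5 fell in old vs young (median -0.35). AKR1C3 and AKR1B1, reductases that can make PGF2alpha, rose with ICM by 6.23 ± 0.11 and 2.78 ± 0.07, as did TBXAS1 (2.76 ± 0.09). PRXL2B, counted among the genes that rose in old cells, is a partial value because an older symbol holds the rest of its reads. In old cells AKR1C3 fell (-0.81 ± 0.24), and AKR1B1 and TBXAS1 rose by 0.27 ± 0.07 and 0.63 ± 0.11. AKR1C3 has near-identical neighbours in the AKR1C family and is uncertain as a single gene. PTGES2 and PTGES3, which encode other PGE2 synthases, fell with ICM by 0.22 ± 0.07 and 0.37 ± 0.07 on the log2 scale.

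Of 7 tested genes of breakdown and transport, 3 rose, 1 fell and 3 were not called in ICM vs young (median 0.50), and 2 rose, 3 fell and 2 were not called in old vs young (median -0.03). PTGR1, a reductase that acts on the oxidised products of HPGD and on leukotriene B4, rose by 3.90 ± 0.07 with ICM. SLCO3A1, a prostaglandin transporter, rose with ICM (0.66 ± 0.09) and fell in old cells (-1.75 ± 0.12). The 2 that rose in old cells were also transporters, ABCC4 (0.32 ± 0.07) and SLCO2A1 (3.12 ± 0.20). SLCO2A1 is named although its mean lay below 5 CPM. ZADH2, another prostaglandin reductase, rose by 0.50 ± 0.08 with ICM.

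Of 8 tested other prostanoid receptors and their signalling partners, 1 rose, 3 fell and 4 were not called in ICM vs young (median -0.14), and 2 rose, 3 fell and 3 were not called in old vs young (median 0.10). PPARG, a nuclear receptor that a prostaglandin D2 product can bind, rose by 0.31 ± 0.10 with ICM and fell by 0.51 ± 0.11 on the log2 scale in old cells. GNAS, the Gs alpha subunit through which EP2 and EP4 act, differed by -0.18 ± 0.07 with ICM and 0.33 ± 0.07 in old cells.

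**Figure D5:**
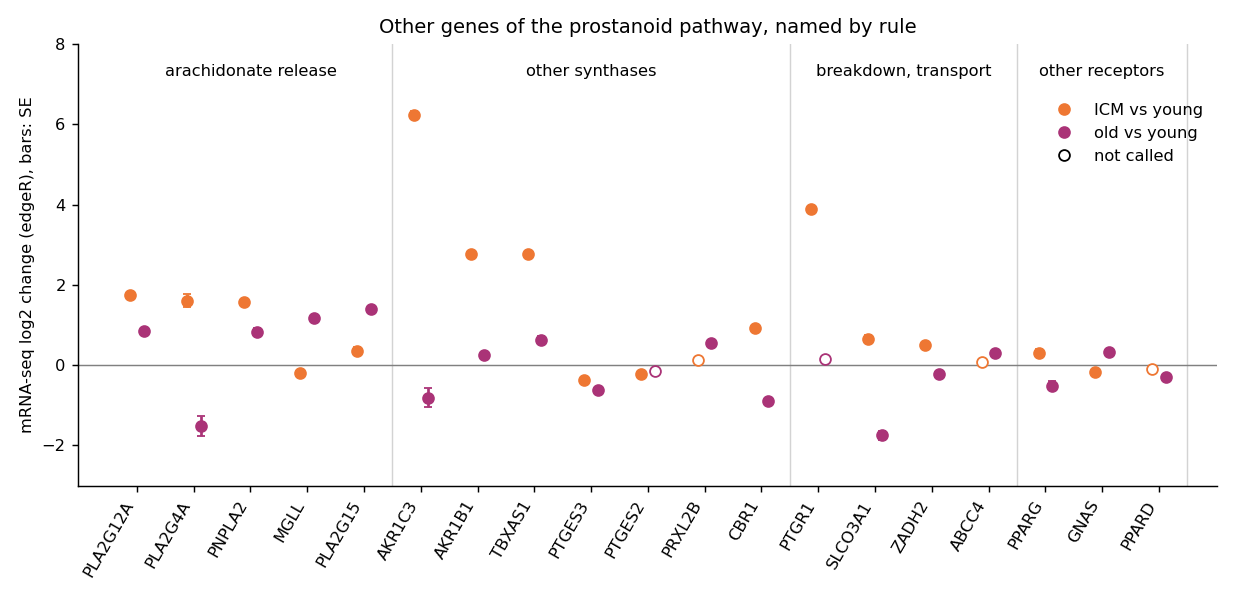
mRNA-seq log2 change of 19 other pathway genes named by rule, in ICM vs young and old vs young, with bars of 1 SE and open symbols where the adjusted p was not under 0.05. AKR1C3 and PTGR1 lie highest with ICM, at 6.23 and 3.90, and PLA2G4A, MGLL, AKR1C3, CBR1, SLCO3A1, ZADH2, PPARG and GNAS lie on opposite sides of 0 in the comparisons, past the threshold in both. PRXL2B holds only part of its gene's reads, the rest being listed under an older symbol.

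Of 18 tested genes of the cAMP response, which EP2 and EP4 feed, 9 rose, 4 fell and 5 were not called in ICM vs young (median 0.51), and 7 rose, 6 fell and 5 were not called in old vs young (median 0.13). ATF3, a stress- and cAMP-responsive transcription factor, rose by 3.28 ± 0.12 with ICM and 1.22 ± 0.13 in old cells, and PDE7A, a cAMP phosphodiesterase, fell by 1.41 ± 0.16 and 1.28 ± 0.16 on the log2 scale. Of 10 tested cytokines, receptors and transcription factors linked to PTGS2 induction, 3 rose, 5 fell and 2 were not called in both comparisons (medians -0.29 and -0.22). CXCL8, a neutrophil chemokine, rose by 3.86 ± 0.37 in both, and EGR1, an early response transcription factor, fell by 3.50 ± 0.22 with ICM and 1.53 ± 0.19 in old cells on the log2 scale.

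Of 12 tested genes for proteins that bind or turn over the PTGS2 mRNA, 1 rose, 10 fell and 1 was not called in ICM vs young (median -0.58), and 2 rose and 10 fell in old vs young (median -0.46). The list includes HMGB1, a chromatin protein that ICM binds and to which the study assigns no role in PTGS2 mRNA turnover. HMGB1 fell by 1.73 ± 0.06 with ICM and 1.40 ± 0.06 in old cells on the log2 scale. Without HMGB1, a change made after the data were seen, 1 of 11 rose and 9 fell (median -0.57) with ICM, and 2 rose and 9 fell (-0.45) in old cells. HNRNPD, which encodes the AU-rich element binding protein AUF1, fell by 1.92 ± 0.08 with ICM and 1.52 ± 0.07 in old cells on the log2 scale. Of 7 tested genes of the lipoxygenase and epoxygenase branch, 4 rose, 2 fell and 1 was not called in ICM vs young (median 0.49), and 3 rose, 2 fell and 2 were not called in old vs young (median 0.33). CYP1B1, a cytochrome P450 that oxidises arachidonate, rose by 2.26 ± 0.07 with ICM and fell by 5.24 ± 0.13 on the log2 scale in old cells.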

How the data were processed

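The sample titles gave each library's group and replicate number. The deposited tables hold estimated counts per gene symbol, in columns for the 5′ UTR, CDS, 3′ UTR and other classes, which the authors did not scale to depth. The submitters' processing notes name STAR 2.6.0c, featureCounts, DESeq2, deepTools and GRCh37, without their roles. Between 11.0% and 20.4% of non-zero Ribo-seq values and 16.8% to 18.0% of non-zero mRNA-seq values were not whole. Reads were thus divided between features in a way that is not given in the sources used here, as is the handling of strand, so genes with near-identical copies or overlapping neighbours are uncertain.

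CDS reads were used for Ribo-seq and the sum of 5′ UTR, CDS and 3′ UTR for mRNA-seq, rounded to whole numbers. Each assay was fitted over all genes and its 9 libraries with edgeR 4.0.16 in R 4.3.3 (quasi-likelihood, TMM scaling, filterByExpr), without a block. Translational efficiency was the assay by condition interaction over all 18 libraries; a lysate block was included because the methods state that both libraries came from one lysate. The deviations of paired libraries from their group means correlated with r between -0.077 and 0.133. p-values are two-sided and adjusted by Benjamini-Hochberg, changes are called at 0.05, and SE is the log2 change over the square root of F. CPM is TMM-scaled. The study used anota2seq, which was not used here. P-values measure the spread between cultures of one line.

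The genes, the 8 lists of 104 further genes and the marker lists were chosen with earlier results of these data known. FAM213B, an older symbol of PRXL2B, and PTGR3, a newer one of ZADH2, were dropped from the lists once the tables had been read. FAM213B and PRXL2B have separate rows that each hold part of the gene's reads, so the PRXL2B values are partial. Other genes are named where called, at a mean of at least 5 CPM and without overlap of replicates, with up to 3 rises and 3 falls in each of the first 4 lists and 1 of each in the others. The alternatives were DESeq2 1.42.0, RLE scaling, other filters and thresholds, only the compared groups, a replicate block, other parts of the transcript, and leaving out lysates.

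On simulated counts with 2-fold changes in ICM vs young, the fits recovered 200 of 200 changed genes in mRNA-seq (12977 genes, 16 false calls), 71 of 191 in Ribo-seq (4297 genes, 2 false calls) and 82 of 192 in translational efficiency (4269 genes, 8 false calls). The changed genes were drawn from those past the filters of both assays. Of the prostaglandin genes only PTGS1 and PTGER2 passed both, so the recovery does not speak for the scarcer ones. Intervals of shares are exact binomial (SciPy 1.17.1), and intervals and limits cover counting error only.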

Additional observations from a re-analysis of the deposited data

Results flagged for a closer look

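Of the 83 tested further genes of the prostaglandin pathway, 17 rose in one of the comparisons with young cells and fell in the other in mRNA-seq, each past the threshold, and 11 of them are genes named by rule. For these the log2 difference between ICM and old cells (ICM minus old) is given. Its direction follows from the choice of genes with opposite changes, so it adds no separate evidence. PLA2G4A, the cytosolic phospholipase A2, differed by 3.12, AKR1C3 by 7.04, CBR1, a carbonyl reductase that can act on PGE2, by 1.81, and SLCO3A1 by 2.41. CYP1B1 differed by 7.50, PPARG by 0.82, ZADH2 by 0.72 and ZFP36L2, an AU-rich element binding protein, by 0.86. MGLL, GNAS and CELF2, another RNA-binding protein, were lower in ICM than in old cells, by -1.37, -0.51 and -1.90. The other 6 were CBR3 (1.85), the cAMP phosphodiesterases PDE4B (1.70) and PDE7B (2.49), the interleukin 1 receptor IL1R1 (1.54), and, lower in ICM cells, CREB3L1 (-0.71) and ZFP36L1 (-0.89). AKR1C3 shares near-identical sequence with other AKR1C genes. None of the 8 prostaglandin genes changed direction past the threshold between these comparisons. How many of all 13177 tested genes rose in one comparison and fell in the other was not counted. The 17 of 83 therefore cannot be set against a background share.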

How the results depend on the processing

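In mRNA-seq the number of the 8 prostaglandin genes called was 7 in ICM vs young under every alternative tried, 5 to 6 in old vs young and 4 to 6 in ICM vs old. The calls lost were those of PTGS2 and PTGER4 given above, PTGER4 in ICM vs old was also below an absolute log2 change of 0.6, and PTGIS was gained there at an adjusted p under 0.15. No called change of these genes reversed in any assay. The Ribo-seq counts depended on the processing, because the filter decides which genes are tested. In ICM vs young 1 gene was called, against 6 without a filter, 2 with UTR reads included, 5 without young replicate 1 and old replicate 2 together, and 1 to 5 when 1 lysate was left out, with 5 without young replicate 1, old replicate 2 or ICM replicate 3. In old vs young 2 were called, against 1 with DESeq2, 4 without a filter, 1 at a mean of at least 50 reads, and 0 (without young replicate 3) to 3 with 1 lysate left out. In ICM vs old 0 were called, against 1 without a filter, 1 with UTR reads included, 1 at an adjusted p under 0.15, 1 without young replicate 1 and old replicate 2, and 0 to 2 with 1 lysate left out, with 2 without young replicate 1 or ICM replicate 3. Apart from the fit without both lysates, shares over all genes are not given for the alternative fits of this section. Their counts therefore show only how the calls depend on the processing.

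Replicate numbers did not pair conditions (correlations of deviations between -0.056 and 0.104). With the replicate number as a block the counts were 7, 6 and 5 in mRNA-seq and 1, 1 and 0 in Ribo-seq. Without the lysate block, as with it, 0 of the genes were called in translational efficiency. The depth of the ICM Ribo-seq libraries, 46239 to 225041 CDS reads, limits every footprint comparison with ICM.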

Other observations

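The further genes of the pathway were also compared between ICM and old cells in mRNA-seq, where 40 of the 83 tested rose, 25 fell and 18 were not called, beside background shares of 30.8% and 32.5%. Of 9 tested other terminal synthases and reductases 7 were higher and 1 lower in ICM than in old cells, with a median log2 change of 1.81. Of 12 arachidonate release genes 6 were higher and 3 lower (median 0.33), and of 18 cAMP response genes 10 were higher and 2 lower (median 0.45). Of 12 genes listed for proteins that bind or turn over the PTGS2 mRNA 3 were higher and 7 lower (median -0.26). Without HMGB1, 3 of 11 were higher and 6 lower (median -0.18).

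In Ribo-seq, 5 of the other terminal synthases and reductases passed the filter, and in ICM vs young 4 of them rose and 1 fell, with a median log2 change of 2.80, beside 13.1% and 13.9% of all tested genes. In old vs young 1 of these 5 rose and 1 fell (median 0.21), beside 19.0% and 17.8%. Of 10 tested genes for proteins that bind or turn over the PTGS2 mRNA 1 rose and 4 fell in both comparisons with young cells (medians -0.90 and -0.39), and 1 rose and 3 fell of the 9 other than HMGB1.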
